A study of Mus musculus with 12 samples.

Results

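The 44 genes described here encode the machinery of cell division: kinases and ubiquitin ligase factors that drive entry into and exit from mitosis, the spindle checkpoint, the kinetochore, the condensin rings, the spindle motors and the proteins of cytokinesis. They were taken by name from a list of mitotic genes, chosen with earlier results of these data known. All 44 had probes on the array (89 probes of 45281). Expression was measured in whole livers of mice aged 2 months on 12 Illumina MouseWG-6 v2.0 arrays, on which the brightness of a probe follows the amount of its transcript. The groups were 4 livers of Atg7 KO mice (Alb-Cre:Atg7 FF), 4 livers of Olig1-Cre:Atg7 FF mice, called Olig1-Cre here, and 4 livers of control mice (Atg7 FF without Cre). All 12 mice thus carried the floxed Atg7 allele, which codes for an enzyme that autophagy needs. The Alb promoter drives Cre in hepatocytes, whereas Olig1 is a gene of the oligodendrocyte lineage. The labels call the Olig1-Cre mice conditional knockouts too, but the sources used here do not say whether Cre acted in their livers. The 4 Atg7 KO mice were male, and the Olig1-Cre and control groups each held 1 male (Olig1-Cre replicate 2 and control replicate 1) and 3 females. The controls came from both lines, 2 from that of Alb-Cre and 2 from that of Olig1-Cre. Each of 2 chips held 2 arrays of every group, and a group kept the same places on both chips, so that place and group cannot be told apart.

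A hepatocyte of an adult liver rarely divides, and mitotic genes are close to silent in a resting liver. Their transcripts build up late in the cell cycle, in G2 and M phase, when the MuvB complex with B-Myb and FOXM1 switches them on, whereas in resting cells the DREAM complex, built on the same MuvB core, holds them down. MuvB binds a short element, the cell cycle genes homology region or CHR, which often lies near the start site, and NF-Y binds the CCAAT boxes found upstream of it. In mitosis Cdk1 starts the process, the chromosomal passenger complex and the checkpoint watch over the attachment of kinetochores to microtubules, Cdc20 directs the anaphase-promoting complex to its targets, and the central spindle places the cleavage furrow.

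Promoter windows of 300 bases, 250 before and 50 from the annotated start, were found for 36 of the 44 genes in RefSeq (GRCm38.p6). The CHR was searched as TTTGAA or TTTAAA and the CCAAT box as CCAAT, each on both strands, TTTAAA being its own reverse complement, and neither motif contains the other. A CHR match was found in 80.6% of the 36 windows, against 27.8% of the 27025 windows of all genes, and a CCAAT match in 72.2% against 37.9%. Both stood in the same window for 66.7% of the mitotic genes and 10.9% of all genes. A CHR match that began within 50 bases of the start was found in 72.2% of the mitotic genes' windows, against 8.24% of all windows, and at least 2 CCAAT matches in 47.2% against 12.2%. The 4 windows shown are of genes whose changes are described further on, Prc1 (chr7:80294201-80294500, plus strand), Cdk1 (chr10:69352863-69353162, minus strand), Aurka (chr2:172370521-172370820, minus strand) and Cdc20 (chr4:118437294-118437593, minus strand). Each is written 5′ to 3′ along the gene with the matches in capitals (CCAAT, or ATTGG where the match is on the other strand, and TTTGAA or TTTAAA), the start being the first base after the leading 250.
Prc1: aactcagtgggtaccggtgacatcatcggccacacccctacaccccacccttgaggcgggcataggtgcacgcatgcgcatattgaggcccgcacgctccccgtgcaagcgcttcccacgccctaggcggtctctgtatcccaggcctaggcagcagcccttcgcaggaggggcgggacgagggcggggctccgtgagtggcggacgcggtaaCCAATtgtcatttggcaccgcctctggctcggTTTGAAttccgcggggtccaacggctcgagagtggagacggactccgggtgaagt
Cdk1: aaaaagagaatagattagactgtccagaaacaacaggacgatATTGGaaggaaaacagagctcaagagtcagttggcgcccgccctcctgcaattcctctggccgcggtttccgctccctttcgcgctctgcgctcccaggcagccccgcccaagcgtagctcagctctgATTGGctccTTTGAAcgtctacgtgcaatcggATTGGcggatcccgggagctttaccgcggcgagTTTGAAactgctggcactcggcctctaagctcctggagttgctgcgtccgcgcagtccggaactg
Aurka: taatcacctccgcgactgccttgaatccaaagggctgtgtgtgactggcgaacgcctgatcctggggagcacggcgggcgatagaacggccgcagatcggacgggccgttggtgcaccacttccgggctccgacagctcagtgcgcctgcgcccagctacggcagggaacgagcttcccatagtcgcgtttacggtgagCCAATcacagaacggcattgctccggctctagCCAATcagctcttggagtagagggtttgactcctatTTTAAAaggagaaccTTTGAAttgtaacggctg
Cdc20: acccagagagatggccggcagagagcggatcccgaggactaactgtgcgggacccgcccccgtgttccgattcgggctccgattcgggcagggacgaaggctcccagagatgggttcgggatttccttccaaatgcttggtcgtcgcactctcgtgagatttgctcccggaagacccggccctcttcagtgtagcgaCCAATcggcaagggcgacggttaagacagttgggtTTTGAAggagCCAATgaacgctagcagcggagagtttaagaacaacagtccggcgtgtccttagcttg
In these windows the CHR match nearest to the start began 5 bases before it in Prc1, 15 before it in Cdk1, 18 after it in Aurka and 18 before it in Cdc20. A match is a run of letters and was not tested as a binding site. Of the 26 genes with a window whose expression could be tested, the 20 with a CHR match near the start had a median log2 fold change between Atg7 KO and control livers of 1.45 (0.02 to 3.57), and the 6 without one a median of 1.93 (0.27 to 2.56).

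**Figure D1:**
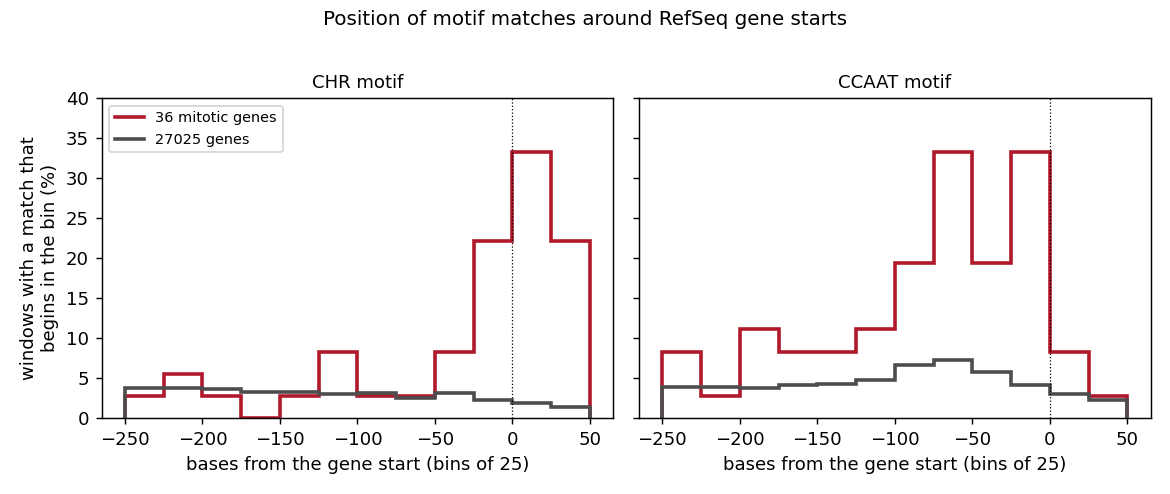
Share of promoter windows (in percent) with a CHR match (left) or a CCAAT match (right) beginning in each bin of 25 bases, by the distance from the RefSeq start, for 36 mitotic genes and for 27025 genes. In the mitotic genes CHR matches were most frequent in the bin from 0 to 24 bases after the start (33.3% of windows, against 1.93% of all windows), and CCAAT matches lay mostly before it.

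Values are given on the log2 scale after background correction and quantile normalization, and the dimmest probe still detected on an array had a value between 4.49 and 4.92, so that values near or below these are close to background. A probe counted as detected where its detection p-value was under 0.05. The share of all probes detected was 39.8% to 43.9% on Atg7 KO arrays, 39.1% to 41.9% on Olig1-Cre arrays and 34.2% to 37.8% on control arrays, and control replicate 1 was the dimmest array. The single probe named Atg7 was detected on 2 of 12 arrays (Atg7 KO replicate 3 and control replicate 2) and gives no check of the deletion. The tissue showed its hepatocyte markers at high level, with Apoa1 at a mean of 13.79, 13.80 and 13.86 and Ttr at 13.64, 13.74 and 13.82 in Atg7 KO, Olig1-Cre and control livers, while the probe of Alb was near background (4.69, 4.92 and 5.48).

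How many mitotic genes rose above background differed between the groups. Of the 44 genes, 32, 32, 34 and 33 were detected on the Atg7 KO arrays, 31, 26, 33 and 34 on the Olig1-Cre arrays and 9, 13, 16 and 21 on the control arrays. The lowest Cre array, Olig1-Cre replicate 2, thus stood above every control array. Genes were tested where a probe was detected on at least 4 of the 12 arrays, which left 33 of the 44 genes with 53 probes. The other 11 were Cks2, Ube2c, Melk, Bub1, Ttk, Cenpe, Nuf2, Ncapg, Hmmr, Kif20a and Racgap1, of which 9 were detected on no array. Melk was seen on 1 Atg7 KO and 1 Olig1-Cre array and Nuf2 on 1 Olig1-Cre and 1 control array. At the edge of this filter 2 genes were tested on 4 and 5 arrays (Smc2 and Ect2). Among the 33 tested genes 12 were detected on no control array and 8 on all 4, so 25 of them could not have passed on the control arrays alone. In whole liver, fewer cells of a type and less RNA per cell cannot be told apart.

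Against control livers, Atg7 KO livers showed a broad rise of the mitotic genes. Of the 33 tested, 28 were higher and 0 were lower at an adjusted p under 0.05 (limma, Benjamini-Hochberg over 10711 genes; 29 higher and 0 lower at an unadjusted p under 0.05), where 19.5% of all genes were higher and 15.3% lower (24.1% and 21.3% unadjusted). Every Atg7 KO array exceeded every control array for 29 of the 33 and lay below for 0, against 19.4% and 15.7% of all genes. All 33 log2 fold changes were above 0, against 49.5% over all genes. Their median was 1.45 (0.02 to 3.57), against -0.01 for all genes, and it was 1.38 with the 12 genes undetected in the controls set at their lower bound, or 1.20 with the 13 detected on some control arrays set against the floor as well. It shrank to 0.57 with the cubic spline and to 0.55 without background correction, where 27 genes were higher in each (18.6% of all genes in each). Of the 8 genes detected on all control arrays, 7 rose (all but Spc24), and the share among all genes so detected was not counted. Kif23, among the 7, also had a probe that was called lower. The values of some of the 8, Birc5 and Cdca3 among them, also take in probes that passed the filter only with the Cre arrays. With no filter, 26 of the 44 were higher and 0 lower (8.71% of all genes higher), with a median of 0.50. Within the first chip 26 of the 33 were higher (10.6% of all genes) and within the second 24 (8.66%). With sex as a covariate, a fit that rests on the single male control (replicate 1), 24 of the 33 were higher (12.2% of all genes), and with males alone 22 (8.66% of all genes). Where the arrays were only scaled to 1 median, which moved all genes up by a median of 0.59, the split over all genes was 4854 higher and 163 lower, against 2088 and 1644 in the quantile-normalized data, and 31 of the 33 mitotic genes were higher with a median of 1.80.

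**Figure D2:**
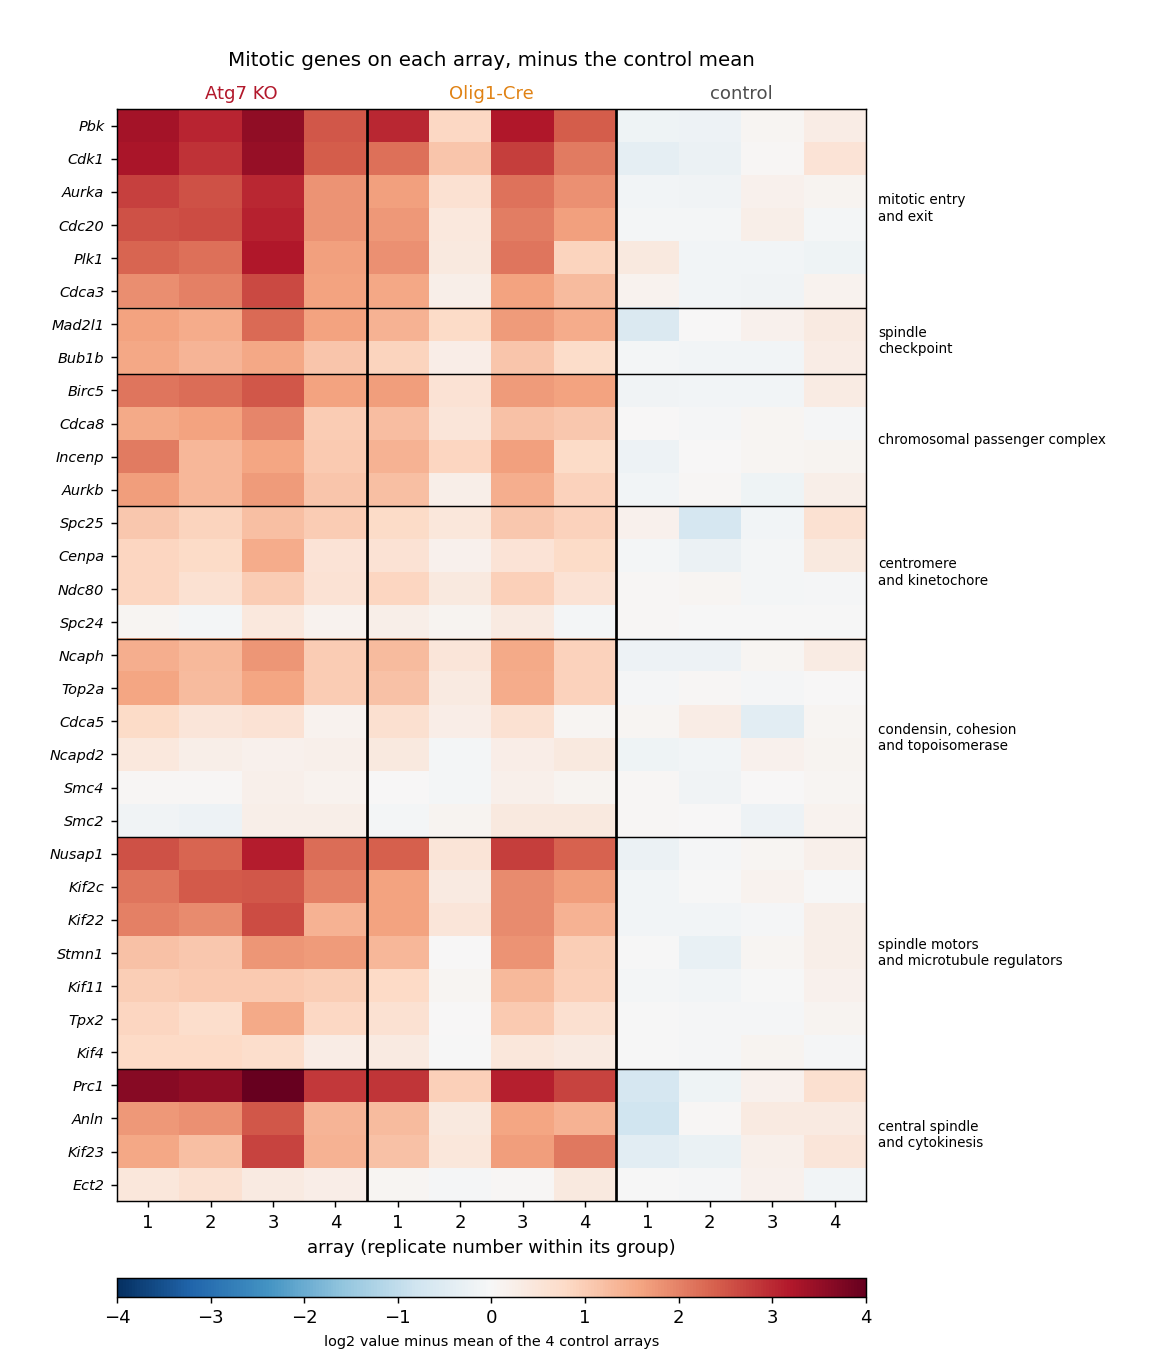
The 33 tested mitotic genes (rows, by role and by change in Atg7 KO livers) on each of the 12 arrays (columns, 4 for each group), as the log2 value minus the mean of the 4 control arrays. The entry and exit genes, Nusap1 and Prc1 stand out on all Atg7 KO arrays and on Olig1-Cre replicates 1, 3 and 4, and Olig1-Cre replicate 2 is paler than the rest of its group.

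Mitotic genes were also higher in Olig1-Cre livers. Against the controls, the same 4 arrays as before, 24 of 33 were higher and 0 lower (27 and 0 unadjusted), where 12.8% of all genes were higher and 8.47% lower (19.9% and 16.7% unadjusted). The median log2 fold change was 1.03 (0.07 to 2.41), or 0.86 with the 12 genes at their bound and 0.83 with the other 13 at the floor. With the cubic spline it was 0.39 and without background correction 0.38, with 20 genes higher in each (11.5% of all genes in each). Every Olig1-Cre array exceeded every control array for 18 of the 33 and lay below for 0, against 14.1% and 9.78% of all genes. Of the 8 genes detected on all control arrays, 6 rose (all but Cenpa and Spc24), again without a share among all genes so detected. The 9 genes that were not called were Cenpa, Kif4, Tpx2, Ect2, Spc24, Smc2, Smc4, Ncapd2 and Cdca5, while in Atg7 KO livers the 5 not called were Spc24, Smc2, Smc4, Ncapd2 and Cdca5. The count of 24 depended on the choices made. It was 15 without Olig1-Cre replicate 3 (7.12% of all genes), 16 without replicate 1 (7.25%) and 12 of 44 with no filter (4.50%). Against the 2 controls of the Olig1-Cre line alone it was 4, where 4.60% of all genes were higher. Within the second chip 22 were higher (7.16% of all genes), and within the first 0, where 0.149% of all genes were, with 2 arrays of each group on a chip. Unadjusted, 24 were higher against the 2 controls and 16 within the first chip, and the unadjusted shares over all genes were not counted there. Without the male array of either group, 27 of 33 were higher (16.1% of all genes), with a median of 1.18.

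**Figure D3:**
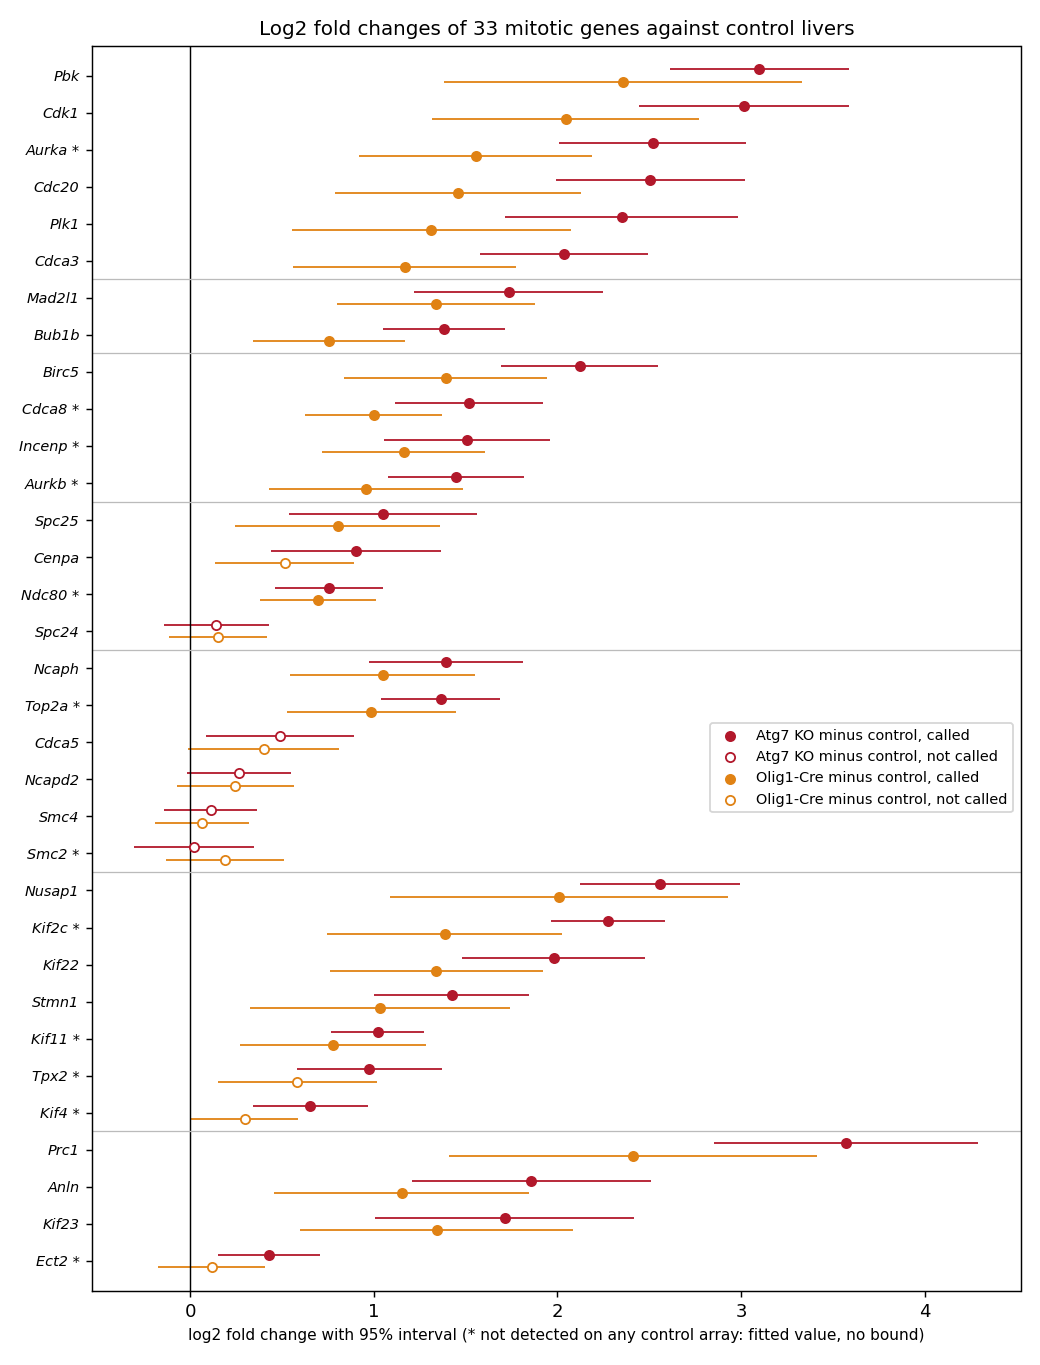
Log2 fold changes against control livers with 95% intervals for the 33 tested genes, Atg7 KO above Olig1-Cre in each row and filled where the adjusted p is under 0.05. Every fold change is above 0, and those of Spc24, Cdca5, Ncapd2, Smc4 and Smc2 are not called in either group.

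The kinases and ubiquitin ligase factors of mitotic entry and exit had the highest median change of the 7 role groups. All 6 tested members rose in both Cre groups, by a median log2 fold change of 2.51 in Atg7 KO and 1.51 in Olig1-Cre livers. Pbk, a mitotic serine/threonine kinase, had 7.77, 7.51, 8.0 and 6.94 on the log2 scale in Atg7 KO livers, 7.46, 5.28, 7.65 and 6.86 in Olig1-Cre livers and 4.28, 4.26, 4.53 and 4.75 in control livers. No control array reached the lowest Cre array, which was Olig1-Cre replicate 2. The log2 fold change of Pbk was 3.10 ± 0.22 (SE) in Atg7 KO livers (adjusted p = 5.8e-06, limma) and 2.36 ± 0.44 in Olig1-Cre livers (adjusted p = 0.0064). Pbk was detected on 1 control array, and set against the lowest detected signal where a control array was below it, the rise was 6.83-fold in Atg7 KO and 4.09-fold in Olig1-Cre livers. Cdk1, the kinase that launches mitosis, averaged 7.63 ± 0.47 in Atg7 KO, 6.66 ± 0.69 in Olig1-Cre and 4.61 ± 0.41 in control livers (SD, n = 4 each). It was detected on every Cre array and on 1 control array. Against the control floor set in this way it rose 6.69-fold in Atg7 KO and 3.41-fold in Olig1-Cre livers. The adjusted p of 2.0e-05 and 0.0033 (limma) belongs to the fitted values without the floor.

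Cdc20, which directs the anaphase-promoting complex to securin and cyclin B, had 7.01, 7.05, 7.52 and 6.26 on the log2 scale in Atg7 KO livers, 6.19, 4.87, 6.50 and 6.11 in Olig1-Cre livers and 4.38, 4.38, 4.69 and 4.38 in control livers. The Atg7 KO arrays lay above the controls by 2.50 ± 0.23 on the log2 scale (SE, adjusted p = 3.2e-05, limma) and the Olig1-Cre arrays by 1.46 ± 0.30 (adjusted p = 0.0099). It was detected on 2 control arrays, and against the control floor the differences were 2.19 in Atg7 KO and 1.14 in Olig1-Cre livers. Again Olig1-Cre replicate 2 lay closest to the controls. Plk1, the polo-like kinase of centrosomes and kinetochores, averaged 7.24 ± 0.65 in Atg7 KO, 6.21 ± 0.81 in Olig1-Cre and 4.89 ± 0.25 in control livers (SD, n = 4 each). It rose 5.10-fold in Atg7 KO and 2.49-fold in Olig1-Cre livers (adjusted p = 0.00018 and 0.024, limma). The Olig1-Cre call of Plk1 was lost in 10 of 26 alternatives, 5 of them with 1 array left out. Aurka, the kinase of the spindle poles, was detected on all 8 Cre arrays and on no control array, and its rise was at least 4.83-fold in Atg7 KO and at least 2.48-fold in Olig1-Cre livers (adjusted p = 2.8e-05 and 0.0061, limma). Such bounds set the mean of the brighter group against the mean over control arrays of the lowest detected signal or the gene's own value, whichever was higher. An adjusted p given beside a bound, here and below, tests the fitted log2 fold change without the floor and not the bound. Cdca3, a trigger of mitotic entry, rose 4.11-fold in Atg7 KO and 2.25-fold in Olig1-Cre livers (adjusted p = 5.6e-05 and 0.016, limma). Its brighter probe was detected on all 12 arrays and rose by 2.11 in Atg7 KO and 1.30 in Olig1-Cre livers on the log2 scale. The dimmer probe of Cdca3 was detected on no control array. Cks2, Ube2c and Melk, the other members, were among the untested genes.

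**Figure D4:**
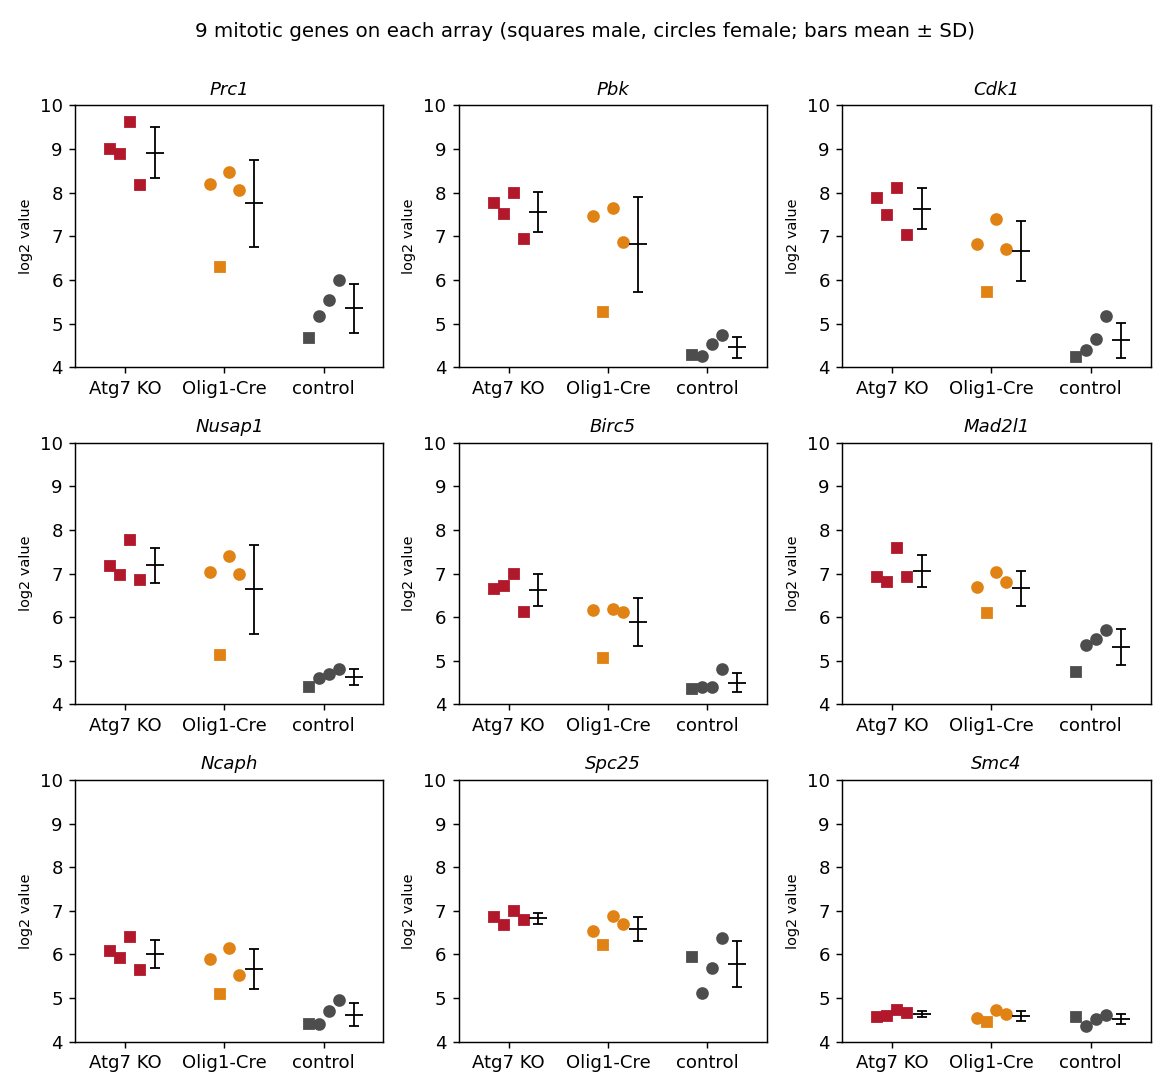
Log2 values of 9 mitotic genes on each array, squares for male and circles for female mice, with the mean and SD of each group (n = 4) beside the points. In 8 of the panels all Atg7 KO arrays lie above all control arrays, the only square of the Olig1-Cre group is its lowest array in every panel, and Smc4 lies between 4.37 and 4.72 on every array.

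Of the spindle checkpoint, which holds back anaphase until every kinetochore is attached, both tested members rose in both groups. Mad2l1, the Mad2 protein that binds Cdc20, had 6.93, 6.80, 7.59 and 6.92 on the log2 scale in Atg7 KO livers, 6.70, 6.10, 7.04 and 6.80 in Olig1-Cre livers and 4.74, 5.35, 5.50 and 5.70 in control livers. It was detected on all 12 arrays and no Cre array overlapped the controls, with log2 fold changes of 1.74 ± 0.23 in Atg7 KO and 1.34 ± 0.24 in Olig1-Cre livers (SE, adjusted p = 0.00032 and 0.0058, limma). Bub1b, the checkpoint pseudokinase BubR1, averaged 6.2 ± 0.21, 5.58 ± 0.36 and 4.82 ± 0.19 in Atg7 KO, Olig1-Cre and control livers (SD, n = 4 each). It rose 2.61-fold in Atg7 KO livers (adjusted p = 8.7e-05, limma) and 1.69-fold in Olig1-Cre livers (adjusted p = 0.019), where replicate 2 at 5.09 overlapped control replicate 4 at 5.11. The Olig1-Cre call of Bub1b was lost in 8 of 26 alternatives, 4 of them with 1 array left out. Its 2 probes rose by 1.32 and 0.20 in Olig1-Cre livers on the log2 scale (adjusted p = 0.0072 and 0.46, limma over probes). The kinases Bub1 and Ttk (Mps1) were not tested.

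All 4 subunits of the chromosomal passenger complex, which corrects faulty attachments and then moves to the central spindle, rose in both groups. Birc5, the subunit survivin, had 6.64, 6.72, 6.99 and 6.11 on the log2 scale in Atg7 KO livers, 6.17, 5.07, 6.19 and 6.11 in Olig1-Cre livers and 4.36, 4.39, 4.40 and 4.82 in control livers. Its brightest probe was detected on all 12 arrays. The other probes were detected on 0 and 1 control arrays and set the control values above, which lie near background. The median of the probes rose by 2.12 ± 0.19 in Atg7 KO and 1.39 ± 0.25 in Olig1-Cre livers on the log2 scale (SE, adjusted p = 2.8e-05 and 0.0054, limma). By its brightest probe alone Birc5 rose by 2.18 in Atg7 KO and 1.48 in Olig1-Cre livers. Its partners, the kinase Aurkb, the scaffold Incenp and the subunit borealin, Cdca8, were seen on every Cre array and on no control array. The bound for Incenp was at least 2.30-fold in Atg7 KO and at least 1.81-fold in Olig1-Cre livers. That for Cdca8 was at least 2.23-fold in Atg7 KO and at least 1.55-fold in Olig1-Cre livers, and that for Aurkb at least 2.16-fold in Atg7 KO and at least 1.54-fold in Olig1-Cre livers (adjusted p at most 0.00033 in Atg7 KO and 0.020 in Olig1-Cre livers, limma). The 3 bounds lay close together in each group. The Olig1-Cre call of Aurkb was lost in 6 of 26 alternatives, 3 of them with 1 array left out.

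Members of the centromere and kinetochore had smaller fold changes, with 3 of 4 called in Atg7 KO and 2 of 4 in Olig1-Cre livers (median log2 fold changes 0.83 in Atg7 KO and 0.61 in Olig1-Cre livers). Spc25, a subunit of the Ndc80 complex that grips microtubules, had 6.86, 6.68, 6.99 and 6.79 on the log2 scale in Atg7 KO livers, 6.55, 6.23, 6.87 and 6.70 in Olig1-Cre livers and 5.94, 5.12, 5.69 and 6.38 in control livers. The lowest Atg7 KO array was above the highest control, whereas in Olig1-Cre livers replicate 2 fell below control replicate 4. The log2 fold changes were 1.05 ± 0.23 in Atg7 KO and 0.80 ± 0.25 in Olig1-Cre livers (SE, adjusted p = 0.0058 and 0.046, limma). In Atg7 KO livers the call was lost with sex as a covariate (0.89, adjusted p = 0.12). In Olig1-Cre livers it was lost in 12 of 26 alternatives, 6 of them with 1 array left out. The bound for Ndc80 itself was at least 1.18-fold in Atg7 KO and at least 1.13-fold in Olig1-Cre livers. Its calls (adjusted p = 0.0016 and 0.0095, limma) rest on the fitted log2 fold changes of 0.76 and 0.70, with control values below the floor. Spc24, the partner of Spc25 in the same complex, had 6.99, 6.84, 7.32 and 7.07 on the log2 scale in Atg7 KO livers, 7.15, 7.01, 7.26 and 6.85 in Olig1-Cre livers and 6.97, 6.90, 6.90 and 6.88 in control livers. All 3 groups overlapped, with log2 fold changes of 0.14 in Atg7 KO and 0.15 in Olig1-Cre livers (adjusted p = 0.43 and 0.39, limma), and its 2 probes pointed in opposite directions in Atg7 KO livers (0.47 and -0.19, neither called at the adjusted p of 0.066 and 0.48). Cenpa, the histone variant that marks centromeres, averaged 9.29 ± 0.40 in Atg7 KO, 8.90 ± 0.25 in Olig1-Cre and 8.38 ± 0.26 in control livers (SD, n = 4 each). It rose 1.87-fold in Atg7 KO livers (adjusted p = 0.0074, limma). With sex as a covariate, a fit that rests on the single male control, this call was lost at a log2 fold change of 0.98. The 1.43-fold difference of the Olig1-Cre livers missed the threshold (adjusted p = 0.055), and Atg7 KO against Olig1-Cre livers was not called either (adjusted p = 0.42). Nuf2, the remaining subunit of the Ndc80 complex, and the kinesin Cenpe were not tested.

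The genes that shape mitotic chromosomes included those with the smallest differences. Only 2 of 6 tested members, Ncaph and Top2a, were called in either Cre group, and the median log2 fold changes were 0.38 in Atg7 KO and 0.32 in Olig1-Cre livers. Ncaph, a subunit of condensin I, had 6.08, 5.93, 6.40 and 5.65 on the log2 scale in Atg7 KO livers, 5.90, 5.10, 6.14 and 5.54 in Olig1-Cre livers and 4.40, 4.40, 4.71 and 4.96 in control livers. No Cre array overlapped a control and the log2 fold changes were 1.39 ± 0.19 in Atg7 KO and 1.05 ± 0.23 in Olig1-Cre livers (SE, adjusted p = 0.00033 and 0.011, limma). Ncaph was detected on 2 control arrays, and against the control floor the differences were 1.18 in Atg7 KO and 0.83 in Olig1-Cre livers. Top2a, the topoisomerase that unlinks sister chromatids, rose at least 1.91-fold in Atg7 KO and at least 1.47-fold in Olig1-Cre livers (adjusted p = 8.3e-05 and 0.010, limma). The ATPases that form the core of both condensins, Smc2 and Smc4, stayed close to background and were called in neither group.

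Smc2 had 4.39, 4.33, 4.75 and 4.76 on the log2 scale in Atg7 KO livers, 4.44, 4.64, 4.91 and 4.91 in Olig1-Cre livers and 4.58, 4.55, 4.32 and 4.68 in control livers, and was detected on 2 Atg7 KO, 2 Olig1-Cre and 0 control arrays. Smc4 had 4.57, 4.58, 4.72 and 4.66 on the log2 scale in Atg7 KO livers, 4.54, 4.44, 4.72 and 4.63 in Olig1-Cre livers and 4.57, 4.37, 4.53 and 4.61 in control livers, and was detected on all Cre arrays and on 2 control arrays. The groups overlapped for both genes. For Smc2, undetected in the controls, the bound was at least 0.86-fold in Atg7 KO and at least 0.97-fold in Olig1-Cre livers. Its adjusted p was 0.91 in Atg7 KO and 0.37 in Olig1-Cre livers (limma). The 95% interval of Smc4 reached 0.36 in Atg7 KO and 0.32 in Olig1-Cre livers on the log2 scale. Ncapd2, another subunit of condensin I, had 4.99, 4.80, 4.74 and 4.75 on the log2 scale in Atg7 KO livers, 4.94, 4.48, 4.81 and 4.95 in Olig1-Cre livers and 4.38, 4.45, 4.71 and 4.66 in control livers. All Atg7 KO arrays were above the controls by small margins, with log2 fold changes of 0.27 ± 0.13 in Atg7 KO and 0.25 ± 0.14 in Olig1-Cre livers (SE, adjusted p = 0.13 and 0.24, limma). Its 3 probes disagreed, 1 of them rising by 1.42 in Atg7 KO and 0.98 in Olig1-Cre livers (adjusted p = 0.00012 and 0.029). Cdca5, the cohesion factor sororin, differed by 0.49 ± 0.18 in Atg7 KO and 0.40 ± 0.18 in Olig1-Cre livers (SE, adjusted p = 0.060 and 0.15, limma).

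The spindle motors and microtubule regulators rose as a block in Atg7 KO livers, 7 of 7, with 5 of 7 called in Olig1-Cre livers (median log2 fold changes 1.42 in Atg7 KO and 1.03 in Olig1-Cre livers). Nusap1, which crosslinks spindle microtubules around chromosomes, had 7.16, 6.96, 7.76 and 6.86 on the log2 scale in Atg7 KO livers, 7.03, 5.13, 7.40 and 7.00 in Olig1-Cre livers and 4.40, 4.60, 4.70 and 4.82 in control livers. It stood at 4.82 or below in the controls and above that on every Cre array, with log2 fold changes of 2.56 ± 0.20 in Atg7 KO and 2.01 ± 0.41 in Olig1-Cre livers (SE, adjusted p = 9.7e-06 and 0.0097, limma). Since 1 control array detected it, the differences from the control floor were smaller, 2.39 in Atg7 KO and 1.84 in Olig1-Cre livers. Among the kinesins, Kif2c, the microtubule depolymerase MCAK, rose at least 3.39-fold in Atg7 KO and at least 1.83-fold in Olig1-Cre livers, and Kif11, the plus-end motor that separates the spindle poles, at least 1.49-fold in Atg7 KO and at least 1.26-fold in Olig1-Cre livers (adjusted p = 2.6e-06 and 0.00997 for Kif2c, 0.00011 and 0.038 for Kif11, limma). Kif22, a chromokinesin that pushes chromosome arms outwards, rose 3.95-fold in Atg7 KO and 2.53-fold in Olig1-Cre livers, and Stmn1, the microtubule destabilizer stathmin, detected on 1 control array, 2.34-fold in Atg7 KO and 1.78-fold in Olig1-Cre livers against the control floor. The Olig1-Cre calls of Kif11 and Stmn1 were each lost in 13 of 26 alternatives, 7 of them with 1 array left out. Kif4, also a chromokinesin, and Tpx2, the activator of Aurka, were called in Atg7 KO livers (at least 1.15-fold and at least 1.37-fold, adjusted p = 0.0051 and 0.0020, limma), and in Olig1-Cre livers their adjusted p was 0.13 and 0.056. With males alone neither was called in Atg7 KO livers (adjusted p = 0.12 and 0.093), and Kif4 was not with sex as a covariate (adjusted p = 0.065). In Olig1-Cre livers Kif4 was called in 5 and Tpx2 in 7 of 26 alternatives. A test of Atg7 KO against Olig1-Cre livers called neither (adjusted p = 0.34 and 0.48). Olig1-Cre replicate 2 lacked a detected signal for Kif2c, Kif11, Kif4, Tpx2 and Stmn1, which the other 3 arrays of its group showed.

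The largest difference among the 33 belonged to a cytokinesis gene. Prc1, which bundles antiparallel microtubules in the spindle midzone, had 8.99, 8.88, 9.61 and 8.18 on the log2 scale in Atg7 KO livers, 8.21, 6.29, 8.47 and 8.06 in Olig1-Cre livers and 4.68, 5.18, 5.53 and 5.99 in control livers. The controls themselves spread over more than 1 log2 unit, yet the lowest Cre array, Olig1-Cre replicate 2, was above all of them. The log2 fold change was 3.57 ± 0.32 (SE) in Atg7 KO livers, or 11.9-fold (adjusted p = 2.8e-05, limma), and 2.41 ± 0.45 in Olig1-Cre livers, or 5.32-fold (adjusted p = 0.0066). Anln, the scaffold anillin of the contractile ring, averaged 7.14 ± 0.47, 6.43 ± 0.53 and 5.28 ± 0.55 in Atg7 KO, Olig1-Cre and control livers (SD, n = 4 each). It rose 3.62-fold in Atg7 KO and 2.22-fold in Olig1-Cre livers (adjusted p = 0.00087 and 0.028, limma). The Olig1-Cre call of Anln was lost in 7 of 26 alternatives, 4 of them with 1 array left out. Ect2, the exchange factor that activates RhoA at the furrow, had 4.81, 4.95, 4.71 and 4.62 on the log2 scale in Atg7 KO livers, 4.44, 4.30, 4.39 and 4.72 in Olig1-Cre livers and 4.32, 4.29, 4.53 and 4.24 in control livers. It was detected on all Atg7 KO arrays, on 1 Olig1-Cre array and on no control array. It was called in Atg7 KO livers (adjusted p = 0.023, limma) and not in Olig1-Cre livers (adjusted p = 0.55), with no fold given because the controls hold only a bound. The Atg7 KO call was lost in 11 of 26 alternatives, among them the cubic spline (adjusted p = 0.059), sex as a covariate (adjusted p = 0.14) and 4 with 1 array left out. The Cre groups did not differ at the threshold (adjusted p = 0.32).

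Kif23, the kinesin of the centralspindlin complex, had a kept probe called lower while its others rose, and this was noticed after the values were seen. The median of its 3 kept probes gave 7.20 ± 0.67 in Atg7 KO, 6.83 ± 0.71 in Olig1-Cre and 5.49 ± 0.41 in control livers (SD, n = 4 each), a rise of 3.28-fold in Atg7 KO and 2.54-fold in Olig1-Cre livers (adjusted p = 0.0023 and 0.021, limma). A second probe moved the same way (log2 fold changes 1.41 in Atg7 KO and 0.96 in Olig1-Cre livers). The third read 9.45, 9.63, 8.75 and 8.88 in Atg7 KO livers, 9.31, 9.96, 9.26 and 9.30 in Olig1-Cre livers and 11.02, 10.02, 10.33 and 9.93 in control livers. It was lower in both Cre groups (-1.15 in Atg7 KO, adjusted p = 0.0091, and -0.87 in Olig1-Cre livers, adjusted p = 0.039, limma over probes). It was the only one of the 53 kept probes called lower, against 44 called higher in Atg7 KO and 36 in Olig1-Cre livers. Whether it reads the same transcript was not tested. Kif20a and Racgap1, the partner of Kif23 in centralspindlin, were not tested.

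No mitotic gene was called between Atg7 KO and Olig1-Cre livers, although most leaned the same way. The mean was highest in Atg7 KO and lowest in control livers for 31 of the 33 genes, the exceptions being Smc2 and Spc24, where Olig1-Cre livers were highest. Of the 33, 0 were higher and 0 lower at an adjusted p under 0.05 (limma; 13 higher and 0 lower unadjusted), where 0.0747% of all genes were called higher and 0.0840% lower (7.59% and 6.77% unadjusted). The difference was above 0 for 31 of 33 genes, against 49.3% of all genes. The median log2 fold change was 0.39 (-0.17 to 1.16). It was largest for Prc1 (1.16, 95% interval 0.14 to 2.18, adjusted p = 0.29), Cdc20 (1.05, 0.24 to 1.85, adjusted p = 0.24) and Plk1 (1.04, 0.11 to 1.96, adjusted p = 0.30), and closest to 0 for Spc24 (-0.01, -0.33 to 0.30) and Ncapd2 (0.02, -0.28 to 0.32). The interval held 0 for 20 of the 33 genes and reached above 1 for 17, so that for these the interval holds a 2-fold difference. All Atg7 KO arrays exceeded all Olig1-Cre arrays for 2 genes, Cdca3 and Kif2c, against 4.37% of all genes.

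This comparison turned on Olig1-Cre replicate 2, the only male of its group, while all Atg7 KO mice were male. With sex as a covariate the Atg7 KO livers are set against that 1 array, and 10 of 33 genes were then called higher (Aurka, Birc5, Bub1b, Cdc20, Cdca3, Cdk1, Kif2c, Nusap1, Pbk and Prc1) with a median log2 fold change of 1.02, where 1.06% of all genes were higher and 0.812% lower. With males alone 1 was called (Kif2c, 1.90 ± 0.24, SE, adjusted p = 0.043; 0.308% of all genes), with sex as a covariate over all 12 arrays 3 were (Anln, Kif2c and Prc1; 0.420% of all genes), and without replicate 2 none, with a median of 0.24 (8 unadjusted). Sex and the individual mouse cannot be told apart here.

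The mitotic genes moved together from array to array within a group. Olig1-Cre replicate 2 was the lowest array of its group for 29 of 33 genes (32.5% of all genes) and replicate 3 the highest for 27 (23.9% of all genes). In Atg7 KO livers replicate 3 was the highest for 25 (29.2% of all genes) and replicate 4 the lowest for 24 (25.3% of all genes), and among the controls replicate 4 was the highest for 19 (27.6% of all genes). Relative to the control mean, the median of the 33 genes was 1.54, 1.32, 1.75 and 1.10 on the Atg7 KO arrays, 1.24, 0.38, 1.52 and 0.94 on the Olig1-Cre arrays and -0.08, -0.09, 0.03 and 0.15 on the control arrays. Olig1-Cre replicate 2 still exceeded the control mean for 29 of the 33 genes and every control array for 19. The spread between livers was wider for these genes than for genes at large in the Cre groups, with a median SD of 0.36 in Atg7 KO and 0.47 in Olig1-Cre livers, against 0.21 and 0.20 over all genes, and it was 0.17 in control livers, against 0.21. In the controls 12 of the 33 genes were undetected on every array, and the part of this in the spread was not tested.

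**Figure D5:**
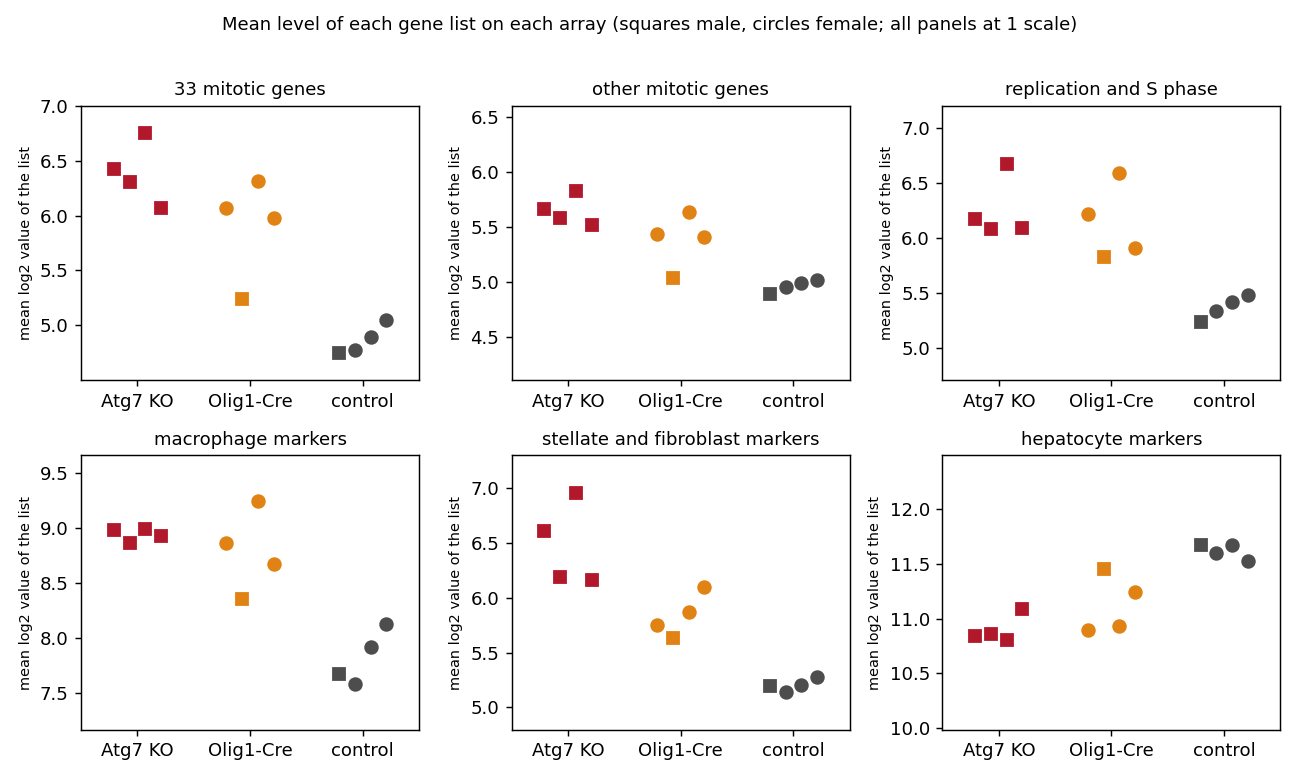
Mean log2 value of 6 gene lists on each array, squares for male and circles for female mice, with all panels at the same scale. The 33 mitotic genes, the other mitotic genes and the S phase genes are lowest in the controls, the macrophage markers order the Olig1-Cre arrays as the mitotic genes do, and the hepatocyte markers are highest in the controls.

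Other genes of the cell cycle rose as well. For scale, 19.5% of all genes were higher and 15.3% lower in Atg7 KO livers, and 12.8% and 8.47% in Olig1-Cre livers. Of 64 further mitotic genes 47 were tested, and 29 were higher and 0 lower in Atg7 KO livers (median log2 fold change 0.62), against 15 and 0 in Olig1-Cre livers (median 0.35). Ckap2, a spindle protein, rose at least 2.59-fold in Atg7 KO and at least 1.11-fold in Olig1-Cre livers, and Sgo2a, the shugoshin that protects centromeric cohesion, at least 2.42-fold in Atg7 KO and at least 1.79-fold in Olig1-Cre livers. Of 19 tested genes of replication licensing and S phase, 14 were higher and 1 lower in Atg7 KO livers and 10 higher and 1 lower in Olig1-Cre livers. Mcm6, a subunit of the replicative helicase, showed the largest change, by 3.06 ± 0.35 in Atg7 KO and 2.61 ± 0.32 in Olig1-Cre livers on the log2 scale (SE, adjusted p = 0.00013 and 0.0010, limma). The lower one was Tk1, thymidine kinase (-0.93 ± 0.16 in Atg7 KO and -0.67 ± 0.20 in Olig1-Cre livers, adjusted p = 0.0015 and 0.037). Of 3 mitotic cyclins 2 had a named probe on the array, and neither passed the detection filter.

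Among 15 tested regulators of mitotic transcription, 5 were higher and 1 lower in Atg7 KO livers, where 19.5% of all genes were higher and 15.3% lower. In Olig1-Cre livers 4 were higher and 0 lower, where 12.8% of all genes were higher and 8.47% lower. Foxm1 averaged 6.12 ± 0.21, 5.48 ± 0.47 and 4.66 ± 0.19 in Atg7 KO, Olig1-Cre and control livers, and E2f1, which drives S phase genes, 7.40 ± 0.39 in Atg7 KO, 7.28 ± 0.43 in Olig1-Cre and 5.86 ± 0.13 in control livers (SD, n = 4 each). Both rose in both groups (on the log2 scale Foxm1 by 1.47 in Atg7 KO and 0.82 in Olig1-Cre livers, E2f1 by 1.54 in Atg7 KO and 1.42 in Olig1-Cre livers, adjusted p at most 0.0265, limma). The difference between the Cre groups was 0.64 for Foxm1 and 0.11 for E2f1 (adjusted p = 0.24 and 0.88). Rbl1, the p107 protein of the DREAM complex, rose by 1.19 in Atg7 KO and 1.05 in Olig1-Cre livers, and Tfdp2, a partner of E2F proteins, fell by 0.66 in Atg7 KO livers.

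Some markers of other liver cells were also higher in the Cre groups, and their part in the result was not tested. The counts below stand against 19.5% of all genes higher and 15.3% lower in Atg7 KO livers. In Olig1-Cre livers these shares were 12.8% and 8.47%. Of 10 macrophage markers 9 were higher in Atg7 KO and 6 in Olig1-Cre livers. Their mean level was 8.86 to 8.99 on Atg7 KO arrays, 8.36 to 9.25 on Olig1-Cre arrays and 7.57 to 8.12 on control arrays. Within the Olig1-Cre group it was lowest on replicate 2 and highest on replicate 3, as were most mitotic genes. Within the Atg7 KO group it was lowest on replicate 2 and highest on replicate 3, whereas most mitotic genes were lowest on replicate 4 and highest on replicate 3. Of 8 stellate cell and fibroblast markers 6 were higher in Atg7 KO and 2 in Olig1-Cre livers, with mean levels of 6.16 to 6.95, 5.63 to 6.10 and 5.14 to 5.27 in Atg7 KO, Olig1-Cre and control livers. In the Atg7 KO group their mean was lowest on replicate 4 and highest on replicate 3, as were most mitotic genes. In the Olig1-Cre group their mean was lowest on replicate 2 and highest on replicate 4. Col1a1, a collagen of scar tissue, rose by 2.86 in Atg7 KO and 1.32 in Olig1-Cre livers on the log2 scale. Of 3 cholangiocyte markers 2 were higher in Atg7 KO and 1 in Olig1-Cre livers, Sox9 among them (2.23 in Atg7 KO and 1.11 in Olig1-Cre livers). The mean of the cholangiocyte markers was also lowest on replicate 4 and highest on replicate 3 of the Atg7 KO group. In the Olig1-Cre group it was lowest on replicate 2 and highest on replicate 1.

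Blood cell markers were taken as well, with the same shares over all genes (19.5% higher and 15.3% lower in Atg7 KO, 12.8% and 8.47% in Olig1-Cre livers). Neutrophil markers were higher for 1 of 6 in Atg7 KO and 3 of 6 in Olig1-Cre livers, with mean levels of 5.06 to 5.70 in Atg7 KO, 5.19 to 6.19 in Olig1-Cre and 4.54 to 5.17 in control livers. Lymphocyte markers were higher for 0 of 4 in Atg7 KO and 2 of 4 in Olig1-Cre livers (4.74 to 5.19 in Atg7 KO, 4.87 to 5.40 in Olig1-Cre and 4.61 to 5.08 in control livers). Of 5 tested markers of erythroid precursors, which divide in a liver with blood formation, none was higher and Klf1, their transcription factor, was lower in both (-1.99 in Atg7 KO and -1.56 in Olig1-Cre livers, adjusted p = 0.00016 and 0.0027, limma). The mean levels of the list were 5.27 to 5.54 in Atg7 KO, 5.04 to 5.75 in Olig1-Cre and 5.79 to 6.07 in control livers. Of 6 endothelial markers 1 was higher and 2 were lower in Atg7 KO livers and 1 was higher and 1 lower in Olig1-Cre livers. Of 9 hepatocyte markers 5 were lower in Atg7 KO and 2 in Olig1-Cre livers and none was higher, with mean levels of 10.80 to 11.09 in Atg7 KO, 10.90 to 11.45 in Olig1-Cre and 11.52 to 11.67 in control livers. Between Atg7 KO and Olig1-Cre livers 0 genes of any of these lists were called (limma, adjusted p under 0.05), where 0.0747% of all genes were higher and 0.0840% lower.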

How the data were processed

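Total RNA of 12 whole livers was hybridised to MouseWG-6 v2.0 arrays. The authors deposited probe intensity values exported from GenomeStudio without normalization and a detection p-value per probe that sets it against negative control beads. The authors also deposited log2 values, and the submitters' processing notes name limma 3.22.1, and the methods describe a GenePattern cubic spline and the median of a gene's probes. Values computed here lay within 0.0270 of the deposited log2 values. In R 4.3.3 with limma 3.58.1, neqc subtracted background estimated from the detection p-values, set an offset of 16 and then quantile-normalized the arrays. Probes detected (p-value under 0.05) on 4 or more arrays were kept (19528 of 45281), named through the platform annotation (34885 probes with 1 symbol, 18 with several, 10378 unnamed here) and reduced to the median per gene (10711 genes). Pairs of groups were compared with lmFit and eBayes on their 8 arrays without covariates, two-sided, with Benjamini-Hochberg adjustment over all genes at 0.05. The procedure was checked on simulated data. Replicate numbers only name arrays, and p-values measure the spread between livers, whose litters are not given in the sources used here. The number of arrays limits the precision. Values on every array are given for the gene with the largest change between Atg7 KO and control livers in each role group and for the 2 largest and 2 smallest in each comparison, and up to 4 called genes are named in other lists. The mitotic genes and all lists were chosen with earlier results of these data known, from general knowledge. Alternatives changed the normalization, the filter, the probes of a gene, the covariates, the controls and the arrays.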

Additional observations from a re-analysis of the deposited data

Results flagged for a closer look

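In groups of 4 arrays, a value was marked where its gap to the nearest other array was too large a share of the range of the group (Dixon's test at 95%). Of 99 such groups of mitotic gene values 7 were marked, where about 5.0 would be by chance (1 in 20). Birc5 was marked on Olig1-Cre replicate 2, the lowest of its group at 5.07, and on control replicate 4, the highest at 4.82. Mad2l1 and Tpx2 were marked on Atg7 KO replicate 3, the highest of its group at 7.59 and 5.78. Bub1b was highest on control replicate 4 at 5.11, Cdc20 on control replicate 3 at 4.69 and Plk1 on control replicate 1 at 5.27. Control replicate 1 also had a median signal of 79.8 before normalization, the lowest of the controls, and without it 28 of 33 mitotic genes were still higher in Atg7 KO and 21 in Olig1-Cre livers. Among the genes too dim to be tested, Melk, a kinase of dividing cells, was detected on 2 of the 8 Cre arrays and on 0 control arrays.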

How the results depend on the processing

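Of the 33 tested mitotic genes, the number that rose in Atg7 KO livers was 28 with the deposited log2 values and lay between 22 and 31 over the other alternatives (22 with males alone, 31 with the arrays scaled to 1 median), and between 27 and 29 when 1 array was left out. In Olig1-Cre livers the number was 24. It moved to 12 with no filter (4.50% of all genes), to 0 within chip 1 (0.149%) and to 4 against controls of the same Cre line (4.60%). With 1 array left out it was 15 to 27 (7.12% to 16.8% of all genes). Between Atg7 KO and Olig1-Cre livers it was 0, except for 10 with sex as a covariate, 3 with sex as a covariate over all 12 arrays and 1 with males alone. In the settings within chip 1 and against 2 controls fewer arrays entered the fit. No mitotic gene was lower against the controls under any alternative but the brightest probe, which took the falling probe of Kif23 (1 lower in each Cre group, at -1.15 and -0.87, and -0.28 between them). Without background correction or after the cubic spline the median log2 fold changes shrank to 0.55 and 0.57 in Atg7 KO and 0.38 and 0.39 in Olig1-Cre livers, with 27 and 20 genes called. Scaling to 1 median moved all genes by 0.59, 0.40 and 0.18 in the 3 comparisons, where the mitotic genes had medians of 1.80, 1.198 and 0.63. None of the following values was called, and the cause was not tested. Against the controls, Atg7 KO values changed sign for Smc2 (-0.0033 with no filter, -0.022 with sex as a covariate or males alone, -0.21 within chip 1, -0.047 to 0.10 without 1 array), Smc4 (-0.059 with the brightest probe or probes detected on all arrays of a group) and Spc24 (-0.19 with the brightest probe, -0.019 within chip 1). Olig1-Cre values did so for Smc4 (-0.088 in the same settings), Spc24 (-0.066), Smc2 (-0.025 within chip 1) and Anln (-0.010 with no filter). Between the Cre groups the sign turned within chip 2 for Kif11 (-0.11), Ncapd2 (-0.13) and Spc24 (0.14), without 1 array for Cdca5 (-0.022 to 0.20), Ncapd2 (-0.082 to 0.075), Ndc80 (-0.037 to 0.15) and Spc24 (-0.10 to 0.060), without the male control and Olig1-Cre arrays, an alternative chosen after seeing the data, for Ncapd2 (-0.082) and Ndc80 (-0.037), and for Spc24 with sex as a covariate or males alone (0.042) and with scaling to 1 median (0.25). With chip as a block the numbers called higher were 29 in Atg7 KO and 26 in Olig1-Cre livers and 0 between them. No paired analysis was possible because the labels carry no replicate numbers. The dim probes limit these data, since 12 of the 33 genes were below detection on every control array and 11 of the 44 could not be tested.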
